A study of Mus musculus with 16 samples.

Results

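Immunoglobulin light chain V segments were followed through RNA sequencing libraries of sorted mouse thymocytes. The segments were all genes whose identifier maps to a symbol starting with Igkv (kappa) or Iglv (lambda). This gave 163 of the 55335 genes listed for libraries with an age, made up of 160 kappa segments on chromosome 6 and 3 lambda segments on chromosome 16.

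The libraries were made from thymic double-positive (DP) cells, the developmental stage that carries both CD4 and CD8. The labels gave 4 old WT, 3 young WT and 3 young METTL3 KO libraries, and 3 WT and 3 METTL3 KO libraries for which no age was stated. METTL3 is the catalytic subunit of the enzyme that writes N6-methyladenosine on RNA. The labels name neither the allele, the Cre driver nor the ages in weeks, and do not say whether replicates came from separate animals, so p-values measure only the spread between these samples.

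A light chain V segment encodes most of the antigen-binding domain of the antibody light chain. In developing B cells a V segment is joined to a J segment by the RAG recombinase, and the joined exon is spliced to a constant region, Igkc for kappa and Iglc1, Iglc2 or Iglc3 for lambda. Each B cell clone and its plasma cell progeny usually carries a single productive light chain, so V segments differ from clone to clone. DP thymocytes express RAG while they rearrange the T cell receptor alpha chain and are not a source of assembled antibody light chains in textbook descriptions.

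Gene counts summed to between 9781368 and 10307780 in libraries with an age and between 10575795 and 16167074 in those without. Reads not aligned made up 0.577% to 0.826% of entries in the first set and 50.5% to 52.2% in the second, so levels were compared only within a set. Mettl3 was at 63.8 ± 3.66 CPM (counts scaled by TMM to the library total, mean ± SD, n = 3) in young WT and 63.7 ± 1.33 (n = 3) in the libraries labelled young KO. It was at 48.9 ± 4.97 (n = 3) in WT and 32.7 ± 5.82 (n = 3) in KO without an age. The libraries labelled young KO thus showed no lower Mettl3 count than young WT. The DP markers Cd4, Cd8a, Cd8b1, Rag1, Rag2, Ptcra and Cd3e summed to between 6140 and 13646 CPM in the 16 libraries, far above the B cell list given further on.

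The 4 V exons on which the values below turn are printed from GENCODE transcripts of mm10, 5′ to 3′ on the coding strand, each up to its last 300 bases. Capitals run from the last in-frame cysteine codon to the end of the exon. The bases after that codon are the germline contribution to the third complementarity-determining region. Igkv4-57-1 (ENSMUSG00000076555, chr6:69544359-69544658, minus strand) was the most abundant segment of the series. Igkv1-110 (ENSMUSG00000093861, chr6:68270968-68271267, plus strand) and Igkv10-96 (ENSMUSG00000094420, chr6:68631963-68632260, minus strand) were found in all 4 old WT libraries. Igkv20-101-2 (ENSMUSG00000106403, chr6:68474809-68475101, plus strand) was the segment that passed the test in the KO libraries without an age.
Igkv4-57-1: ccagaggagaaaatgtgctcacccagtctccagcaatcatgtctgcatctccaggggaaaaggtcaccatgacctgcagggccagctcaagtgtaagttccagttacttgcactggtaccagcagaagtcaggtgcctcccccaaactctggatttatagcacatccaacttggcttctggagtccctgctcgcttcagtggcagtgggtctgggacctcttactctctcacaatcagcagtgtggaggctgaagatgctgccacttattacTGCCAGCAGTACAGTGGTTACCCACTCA
Igkv1-110: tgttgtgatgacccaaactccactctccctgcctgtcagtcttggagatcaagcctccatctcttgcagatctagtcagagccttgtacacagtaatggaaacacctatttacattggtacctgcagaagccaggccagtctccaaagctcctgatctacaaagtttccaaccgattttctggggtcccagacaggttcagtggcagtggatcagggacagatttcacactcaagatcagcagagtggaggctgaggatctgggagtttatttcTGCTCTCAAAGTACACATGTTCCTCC
Igkv10-96: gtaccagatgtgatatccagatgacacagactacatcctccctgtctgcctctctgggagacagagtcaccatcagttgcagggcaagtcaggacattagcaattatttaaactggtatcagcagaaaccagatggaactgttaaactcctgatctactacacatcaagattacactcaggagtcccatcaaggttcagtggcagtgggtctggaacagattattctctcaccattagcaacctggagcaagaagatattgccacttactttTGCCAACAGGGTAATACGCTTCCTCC
Igkv20-101-2: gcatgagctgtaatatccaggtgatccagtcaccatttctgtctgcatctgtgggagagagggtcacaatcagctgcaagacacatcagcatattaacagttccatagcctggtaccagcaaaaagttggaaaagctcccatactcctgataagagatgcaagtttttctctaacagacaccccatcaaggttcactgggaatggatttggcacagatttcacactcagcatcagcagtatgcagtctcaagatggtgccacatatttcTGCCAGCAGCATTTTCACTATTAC

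Their coding parts are 309, 313, 298 and 293 bases long in that order, and each reading frame was open. The exon of Igkv1-110 was 96.8% identical to that of Igkv1-117, its closest relative, and shared an exact run of 142 bases with another V exon. Igkv10-96 was 94.6% identical to Igkv10-94 and Igkv4-57-1 was 92.9% identical to Igkv4-78. For such segments, reads that fit several copies may have been left out or assigned to a relative, so their counts are uncertain. Igkv20-101-2 stood apart in sequence, with 67.8% identity to its closest relative, Igkv11-125, and a longest shared run of 20 bases.

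Of the 163 segments, 102 had at least 1 count in the 16 libraries and 61 had none. All segments together drew 8490 counts. Annotated genes held nearly all of them, with 89 of 103 detected and 8452 counts, while 13 of the 60 annotated pseudogenes were detected with 38 counts. Expression was uneven, since 18 segments reached 100 counts over the series and the leading 5 (Igkv4-57-1, Igkv1-110, Igkv10-96, Igkv3-2 and Igkv4-59) held 53.0% of all counts. Old WT replicate 3 alone gave 4819 of the 8490 counts, and without it the same 5 held 24.1% of 3671. It was also scattered, since 27 segments appeared in exactly 1 library and no segment appeared in all 16. The most widespread was Iglv1, in 14 libraries.

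Summed segment counts were 224, 73 and 118 in young WT libraries and 588, 1312, 4819 and 180 in old WT. They were 73, 186 and 126 in young KO. Replicates 1 to 3 of old WT lay above every young library, and replicate 4 lay inside the young WT range. After scaling by TMM, the sums were 21.8, 7.32 and 11.9 CPM in young WT libraries, 57.4, 130.0, 518 and 17.4 CPM in old WT, and 7.24, 18.4 and 12.5 CPM in young KO. Group means were 13.7 ± 7.41 (SD, n = 3), 181 ± 230 (n = 4) and 12.7 ± 5.57 CPM (n = 3). The old WT mean was thus higher than the young WT mean by 3.72 on the log2 scale, with an SD larger than the mean itself, and the groups overlapped. Replicate 3 held 69.9% of all old WT segment counts, and without it the log2 ratio of means was 2.32. Young KO and young WT overlapped, with a log2 ratio of -0.10.

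In the libraries without an age, segment counts were 114, 242 and 73 in WT and 124, 147 and 91 in KO. These were 7.45, 15.4 and 4.75 CPM in WT and 10.2, 12.9 and 6.88 CPM in KO. All 3 KO values lay within the WT range. The log2 ratio of means was 0.12.

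**Figure D1:**
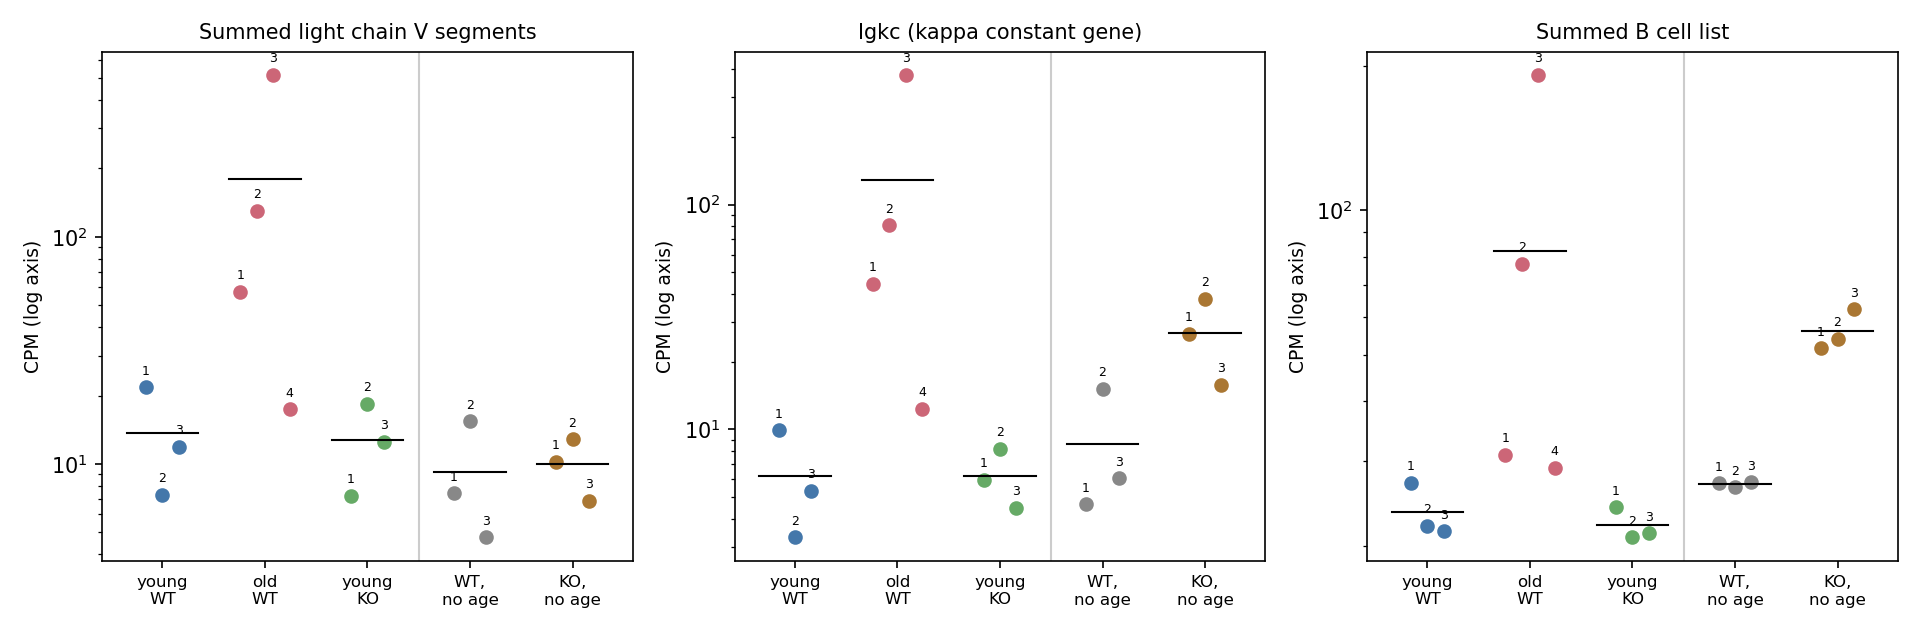
Summed light chain V segment level, Igkc level and summed level of the B cell list in each library (3 panels, CPM on log axes), by group, with each point a library marked by its replicate number and the line the group mean. Old WT replicates 1 to 3 sit at 57.4, 130.0 and 518 CPM, above every young library, and old WT replicate 4 at 17.4 CPM sits among the young WT points.

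The number of segments with at least 1 count was 25, 16 and 22 in young WT libraries, 52, 63, 59 and 28 in old WT, and 19, 18 and 21 in young KO. All 4 old WT libraries therefore exceeded all young ones, with a mean of 50.5 ± 15.7 (n = 4) against 21.0 ± 4.58 (n = 3) in young WT. The number detected moves with the number of segment reads. At a common total of 73 segment reads the expected numbers were 16.4, 16 and 17.9 in young WT libraries and 25.8, 29.1, 16.4 and 20.1 in old WT. On this scale the groups overlapped, with means of 16.8 ± 1.01 (n = 3) and 22.9 ± 5.73 (n = 4), because old WT replicate 3 fell to the young level. Young KO gave 19.0, 10.9 and 16.1 at the same total.

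Without an age, 15, 19 and 12 segments were detected in WT and 21, 29 and 10 in KO. The KO libraries spanned the whole WT range. At 73 reads the expected numbers were 13.0, 15.1 and 12 in WT and 18.4, 24.3 and 9.96 in KO. The group means differed by 4.67 segments before that scaling, less than the KO group's SD of 9.54 (n = 3).

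Shared use across replicates was limited. Segments present in every library of a group numbered 7 of the 39 detected in young WT libraries, 16 of 89 in old WT and 7 of 39 in young KO. Without an age these were 3 of 34 in WT and 2 of 48 in KO. The 2 in KO were Igkv20-101-2 and Igkv8-34, and Igkv20-101-2 was also among the 3 in WT.

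Dominance was read as the share of a library's segment counts taken by its leading segment, with a 95% Wilson interval that covers counting error only. In young WT the leaders were Igkv4-57-1 in replicate 1 with 39 counts (17.4%, 13.0% to 22.9%), Igkv1-135 in replicate 2 with 21 (28.8%, 19.7% to 40.0%) and Igkv3-4 in replicate 3 with 20 (16.9%, 11.2% to 24.7%). Each young WT library thus had its own leader. In old WT, Igkv4-61 led replicate 1 with 86 counts (14.6%, 12% to 17.7%) and Igkv3-2 led replicate 2 with 180 (13.7%, 12% to 15.7%). Igkv4-57-1 led replicate 3 with 2706 counts (56.2%, 54.7% to 57.5%) and Igkv4-59 led replicate 4 with 41 (22.8%, 17.3% to 29.4%). Replicate 3 was the only library of the 16 in which 1 segment took most of the reads.

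Igkv4-57-1 had 0 counts in old WT replicates 1, 2 and 4, 39, 0 and 3 in young WT, 1, 0 and 0 in young KO, while a single WT library without an age had 13. Its exon is the first of the 4 printed above. With this segment left out, old WT replicate 3 still had 2113 segment counts, or 227 CPM, the highest of the libraries with an age. That library also had 9.18% of its entries not uniquely aligned, against 4.46% to 5.36% in the other libraries with an age. The part of this in the result was not tested.

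In young KO, Igkv10-96 led replicate 1 with 16 counts (21.9%, 14.0% to 32.7%), Igkv19-93 led replicate 2 with 74 (39.8%, 33.0% to 47.0%) and Igkv4-80 led replicate 3 with 21 (16.7%, 11.2% to 24.1%). No leader was shared with young WT. In WT without an age, Igkv10-96 led replicate 1 with 28 counts (24.6%, 17.6% to 33.2%), and Igkv1-110 led replicates 2 and 3 with 35 (14.5%, 10.6% to 19.4%) and 29 (39.7%, 29.3% to 51.2%). In KO without an age, Igkv20-101-2 led replicate 1 with 39 counts (31.5%, 23.9% to 40.1%) and replicate 3 with 15 (16.5%, 10.3% to 25.4%), and Igkv12-46 led replicate 2 with 19 (12.9%, 8.43% to 19.3%). Over the 16 libraries there were 12 different leaders. Mean shares were 21.0 ± 6.69% in young WT libraries (n = 3), 26.8 ± 20.0% in old WT (n = 4) and 26.1 ± 12.1% in young KO (n = 3), and these groups overlapped. Ranked per exon length, 1 leader changed, that of WT replicate 2 without an age, to Igkv5-39.

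**Figure D2:**
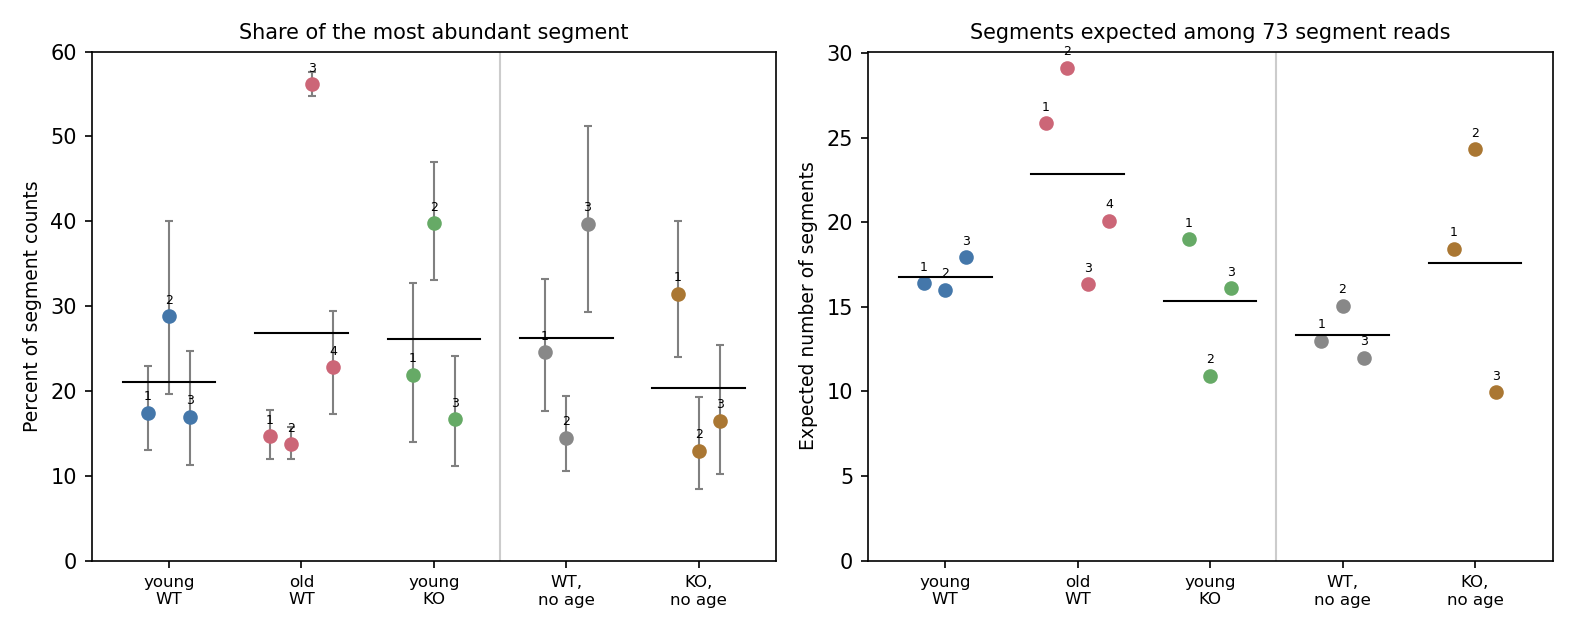
Share of each library's light chain V segment counts taken by its leading segment (left, percent, with 95% Wilson intervals), and number of segments expected among 73 segment reads (right), with a line at each group mean. Old WT replicate 3 stands at 56.2%, and the other libraries lie between 12.9% and 39.8%.

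The effective number of segments, the inverse of the summed squared shares, put dominance on a scale that uses all segments. It was 10.6, 6.59 and 9.66 in young WT libraries and 15.6, 19.4, 3.04 and 9.79 in old WT. Old WT thus held both the most even library with an age, replicate 2, and the least even, replicate 3. Young KO had 8.14, 4.23 and 8.98. In the other set WT had 6.36, 11.1 and 4.17 and KO had 7.11, 15.4 and 8.26.

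Igkv10-96 had 2, 0 and 2 counts in young WT libraries, 49, 81, 195 and 10 in old WT, and 16, 27 and 2 in young KO. Every old WT library was above every young WT library. The fitted log2 difference between old and young WT was 5.90 ± 1.44 (SE), with an adjusted p of 0.228 in edgeR's quasi-likelihood test with Benjamini-Hochberg adjustment over all genes, so it did not pass the threshold of 0.05. Igkv1-110 had 6, 1 and 4 counts in young WT libraries, 72, 117, 315 and 6 in old WT, and 13, 2 and 15 in young KO. Old WT replicate 4 equalled the highest young WT count, and the log2 difference was 5.13 ± 1.42 (edgeR adjusted p = 0.28). Without old WT replicate 3 the differences of Igkv10-96 and Igkv1-110 were 4.99 and 4.09. Igkv4-55 had 0, 1 and 0 counts in young WT libraries and 0, 103, 57 and 26 in old WT, a log2 difference of 6.69 ± 1.96 (edgeR adjusted p = 0.316) with replicate 1 at the young level.

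Igkv4-59 had no counts in young WT and 1, 42, 198 and 41 in old WT. Taken against a floor of 3 counts over the young group, its mean level was at least 70.9-fold higher in old WT, and at least 27.5-fold without replicate 3. These bounds do not cover the spread between libraries. The edgeR adjusted p of Igkv4-59 was 0.332, and old WT replicate 1 was near the young level. Igkv3-2, the V segment 23.5 kb from the first kappa J segment, had 0, 0 and 1 counts in young WT libraries and 6, 180, 199 and 7 in old WT. Igkv4-61 had 86 and 63 counts in replicates 1 and 2 of old WT and had none in replicates 3 and 4. Old WT libraries thus differed in which segments they carried as well as in how much.

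Across the whole table, 14 segments passed the filter on low counts in the libraries with an age, so the counts that follow say nothing of the others. Some of these, such as Igkv3-5 with no counts in the young libraries, passed only through old WT, where they were high. All 14, and all 19 with an adjusted p in DESeq2, had an age difference above 0. The share of segments called for age is therefore not comparable with the share of all genes called. For old against young WT, edgeR called 36 of 14228 genes (0.253%) and 0 of these 14 segments, with 5 at an unadjusted p under 0.05. DESeq2 called 146 of 14903 genes (0.98%) and 5 of 19 segments with an adjusted p, which were Igkv1-110, Igkv10-96, Igkv3-2, Igkv4-59 and Igkv4-68. Without a filter on low counts edgeR called 85 of 29923 genes (0.284%) and 1 of 92 segments, Igkv4-68. With the replicate number as a block it called 61 genes (0.429%) and 4 of 14 segments. The calls on age therefore turned on the tool and the settings. For young KO against young WT, edgeR called 0 of 14228 genes (0.0%) and 0 of 14 segments, with 88 genes and 0 segments at an unadjusted p under 0.05, and DESeq2 also called 0. Igkv10-96 had a log2 difference of 3.37 ± 1.71 there (edgeR adjusted p = 1).

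Some segments of young WT were not seen in young KO. Igkv12-44 had 27, 1 and 14 counts in young WT and none in the 3 young KO libraries, so it was at least 14.0-fold lower against a floor of 3 counts over the group, and at least 7.60-fold without young WT replicate 1. Igkv12-89 had 11, 0 and 13 counts in young WT and none in young KO, at least 8.02-fold lower and 5.48-fold without replicate 3. These bounds do not cover the spread between libraries, and absence was not particular to young KO. Without an age, Igkv12-44 had no counts in WT and 18, 0 and 0 in KO. Igkv12-89 had 0, 0 and 1 there in WT and none in KO. Old WT replicates 1 and 4 also had no counts of Igkv12-44. Igkv1-135 had 1, 21 and 1 counts in young WT and none in young KO, and so rested on 1 library. In the opposite direction Igkv4-80 had none in young WT and 0, 0 and 21 in young KO, and Igkv19-93 had 0, 0 and 1 in young WT and 0, 74 and 0 in young KO. Each of these 5 had an edgeR adjusted p of 1, and those higher in young KO came from a single library.

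**Figure D3:**
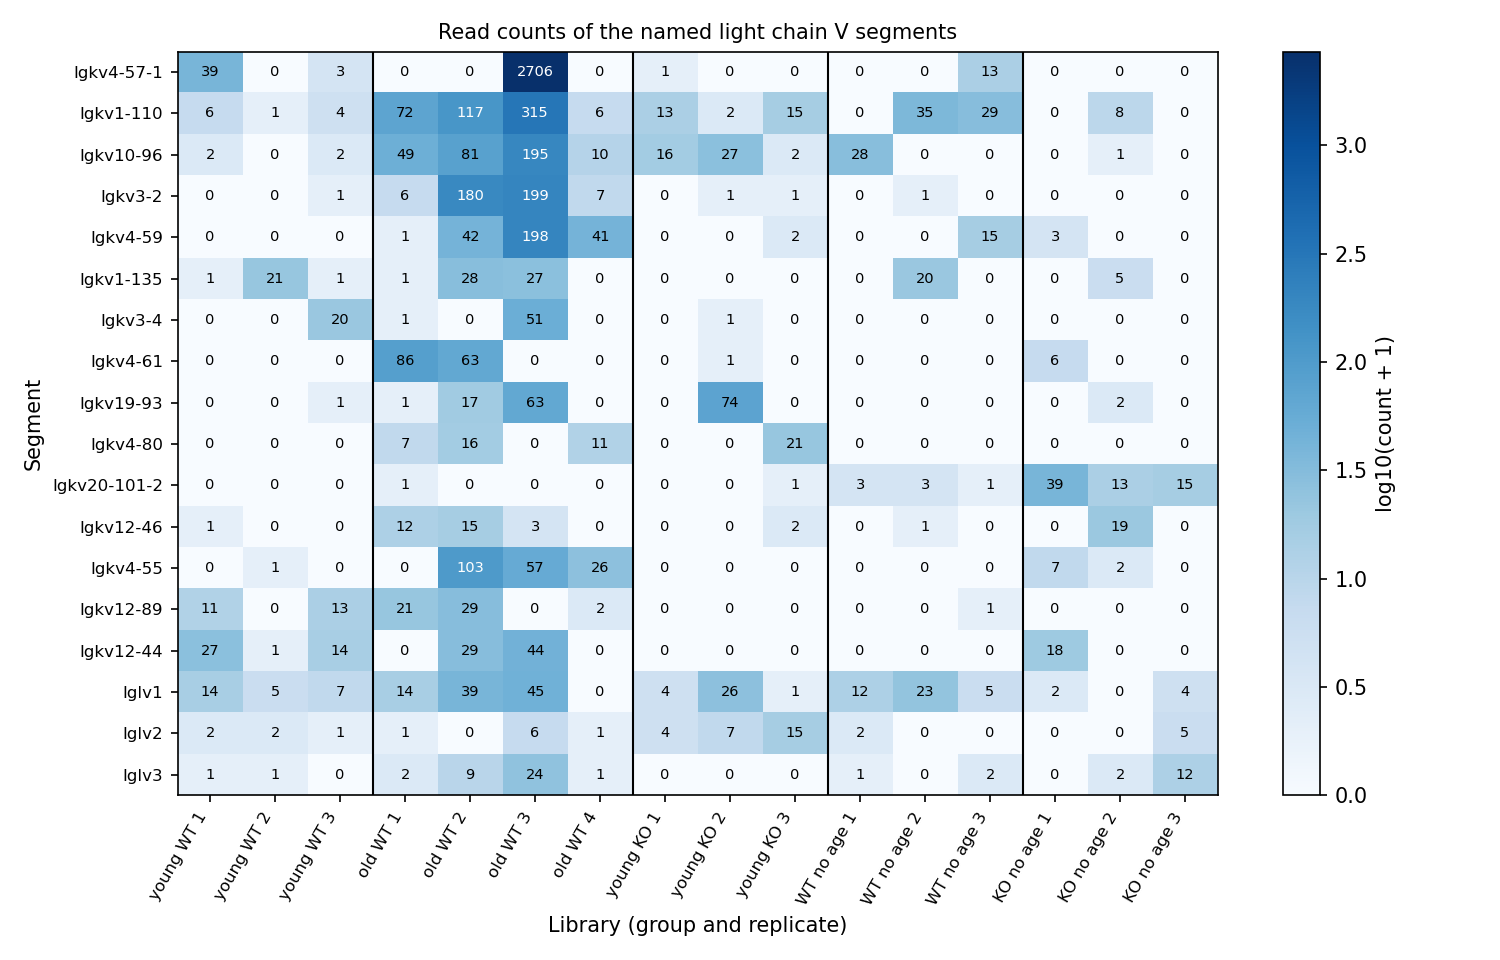
Counts of the 18 segments named by rule in each of the 16 libraries printed in the cells, with colour on a log10(count + 1) scale. Igkv4-57-1 reaches 2706 counts in old WT replicate 3 and 0 in the other old WT libraries. Igkv20-101-2 is present in every library without an age, with 3, 3 and 1 counts in WT and 39, 13 and 15 in KO.

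Igkv20-101-2 had 3, 3 and 1 counts in WT and 39, 13 and 15 in KO without an age, so the groups did not overlap. Its level was 0.151 ± 0.074 CPM in WT and 1.83 ± 1.20 CPM in KO (SD, n = 3 each). The log2 difference was 3.52 ± 0.76 (edgeR adjusted p = 0.0026), higher in 3 of 3 KO libraries, and 2.81 without KO replicate 1 (adjusted p = 0.018). In the libraries with an age it had 1 count in old WT and 1 in young KO. In the same comparison edgeR called 8864 of 16432 genes (53.9%), so a call was not unusual among the genes tested. It called 1 of the 2 segments that passed the filter, and Igkv20-101-2 passed only through KO, where it was high. DESeq2 called 43.4% of genes and the same segment alone among 24. Without a filter edgeR called 32.5% of genes and 11 of 60 segments. The other segment that passed the filter, Igkv1-110, had 0, 35 and 29 counts in WT and 0, 8 and 0 in KO, with a log2 difference of -2.57 ± 1.34 (edgeR adjusted p = 0.125). Its difference rested on few libraries. Without WT replicate 1 it was -3.20 (edgeR adjusted p = 0.037). KO replicate 2 held all KO counts, so without it the KO group was at 0, the fitted value of -7.34 is no measured size, and its edgeR adjusted p of 0.029 is against a group with no counts. The other libraries left out gave -2.31 to -2.02.

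Pseudogene segments gave 1, 1 and 1 counts in WT and 18, 7 and 0 in KO without an age. The KO libraries spanned the WT range.

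Among families, Igkv4 was the largest, with 33 members, of which 23 were detected with 4044 counts. It gave 65, 1 and 12 counts in young WT libraries, 143, 300, 3308 and 91 in old WT, and 9, 5 and 25 in young KO. Replicate 3 of old WT held most of the family's counts through Igkv4-57-1. Igkv1 followed with 8 of 13 members detected and 944 counts, then Igkv3 with 9 of 13 and 698 counts and Igkv6 with 9 of 9 and 538 counts.

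Lambda segments are a minor light chain class in mice. Iglv1, Iglv2 and Iglv3 together took 7.59%, 11.0% and 6.78% of segment counts in young WT libraries and 2.89%, 3.66%, 1.56% and 1.11% in old WT. All old WT libraries lay below all young WT libraries. Young KO had 11.0%, 17.7% and 12.7%, at or above the highest young WT value. Behind these shares stood 17, 8 and 8 counts in young WT libraries, 17, 48, 75 and 2 in old WT, and 8, 33 and 16 in young KO. Iglv1 itself had 14, 5 and 7 counts in young WT libraries and 14, 39, 45 and 0 in old WT, a log2 difference of 1.53 ± 1.14 (edgeR adjusted p = 0.615). Iglv1 lies within the span of the gene 2010309G21Rik on the opposite strand without sharing exon bases. Without an age, lambda shares were 13.2%, 9.50% and 9.59% in WT and 1.61%, 1.36% and 23.1% in KO, where replicate 3 stood above all WT libraries and the other KO libraries below them.

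Position along the kappa locus was compared by splitting the 160 kappa segments into the 80 nearest and the 80 farthest from Igkj1, at 1486 kb. Of these, 52 proximal and 47 distal segments were detected. Distal segments took 27.1%, 64.6% and 45.5% of kappa counts in young WT libraries, 46.1%, 32.7%, 21.5% and 21.3% in old WT, and 61.5%, 96.1% and 56.4% in young KO. Old and young WT overlapped, and so did young KO and young WT. Distal shares were 36.4%, 41.1% and 48.5% in WT and 58.2%, 44.8% and 44.3% in KO without an age, which overlapped as well.

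The kappa constant region Igkc, which every assembled kappa transcript carries, had 102, 33 and 53 counts in young WT libraries, 455, 815, 3526 and 128 in old WT, and 60, 83 and 45 in young KO. It followed the order of the V sums in young WT libraries and in old WT. Kappa V counts per Igkc count were 2.03, 1.97 and 2.08 in young WT libraries and 1.25, 1.55, 1.35 and 1.39 in old WT. All old WT ratios were below all young WT ratios, with means of 1.39 ± 0.124 (n = 4) and 2.03 ± 0.053 (n = 3). Young KO spread from 1.08 to 2.44 around the young WT values. Igkc overlaps the annotated noncoding gene Gm30211 on the same strand, so its reads may be split or set aside as ambiguous.

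In the set without an age Igkc moved apart from the V sums. It had 71, 238 and 93 counts in WT and 323, 435 and 209 in KO, or 8.61 ± 5.70 and 26.9 ± 11.1 CPM (n = 3 each). The log2 difference was 1.64 ± 0.43 (edgeR adjusted p = 0.00733), or 2.27 without WT replicate 2, while the V sums overlapped. Kappa V counts per Igkc count were 1.39, 0.920 and 0.710 in WT and 0.378, 0.333 and 0.335 in KO, so every KO library lay below every WT library. The J segments themselves gave between 0 and 48 counts in each library.

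**Figure D4:**
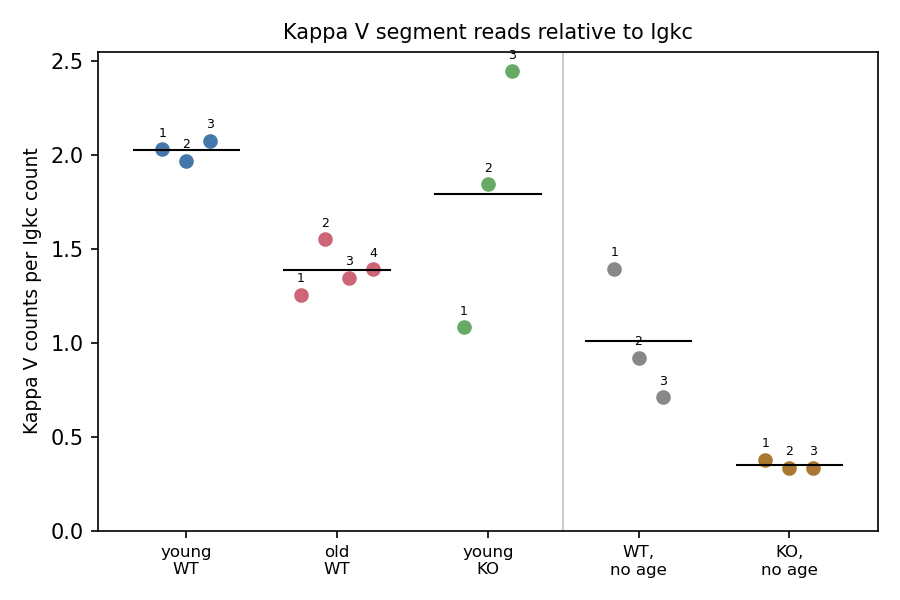
Kappa V segment counts per Igkc count in each library, by group, marked by replicate number, with a line at each group mean. Old WT libraries (1.25 to 1.55) lie below young WT (1.97 to 2.08), and KO libraries without an age (0.333 to 0.378) lie below their WT counterparts (0.710 to 1.39).

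Markers of cells that make antibody were read beside the segments. In bulk RNA, fewer cells of a type and less RNA per cell cannot be told apart. The 11 B cell genes (Ms4a1, Cd79a, Cd79b, Cd22, Pax5, Ebf1, Blk, Bank1, Fcer2a, Cr2 and Fcmr) summed to 27.1, 22.0 and 21.5 CPM in young WT libraries and 31.0, 77.4, 192 and 29.1 CPM in old WT. Old WT libraries were all above young WT, and replicates 2 and 3 led as they did for the V sums. The largest part of each sum was Cd79b, at 19.6, 16.5 and 14.3 CPM in young WT libraries. It was at 17.4, 22.3, 36.6 and 17.1 CPM in old WT, so by this gene alone the groups overlapped. Of the 8 genes that passed the filter, some only through old WT, 0 passed edgeR's test. Cd79a, a signalling subunit of the B cell receptor, had 17, 10 and 16 counts in young WT libraries and 37, 100, 252 and 25 in old WT, a log2 difference of 2.90 ± 0.83 (edgeR adjusted p = 0.28, DESeq2 adjusted p = 0.0028), which was 1.89 without replicate 3. Myeloid markers (Lyz2, Csf1r, Itgam, Adgre1 and Cst3) summed to 77.2, 65.2, 176 and 62.0 CPM in old WT, so replicate 3 also stood apart by this sum. Lyz2, Csf1r, Adgre1 and Cst3 were each highest in replicate 3 of old WT. Itgam went the other way, at 2.34, 2.87, 1.93 and 2.51 CPM in old WT. DP markers summed to between 9490 and 12709 CPM in old WT and between 11054 and 12969 CPM in young WT. The part of B cell RNA in the V sums was not tested.

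Plasma cell genes summed to between 97.3 and 122 CPM in young WT libraries and to 131, 148, 258 and 128 CPM in old WT, again highest in replicate 3. Most of each sum was Xbp1, at 85.5 to 105 CPM in young WT and 100.5 to 138 CPM in old WT. Sdc1, a plasma cell surface proteoglycan, was at 1.17, 1.20 and 0.705 CPM in young WT libraries and 0.489, 1.19, 6.98 and 0.290 CPM in old WT, so that replicate 3 alone was above young WT. Mzb1 was at 0.30 CPM or less in all of these libraries. Jchain, the joining chain of secreted IgM and IgA, had 71, 32 and 34 counts in young WT libraries and 148, 326, 830 and 57 in old WT. In young KO the B cell list summed to 24.1, 20.8 and 21.3 CPM, with the first inside the young WT range and the others just below it, and 0 of the 8 genes tested passed edgeR's test.

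Without an age, the B cell list summed to 27.0, 26.5 and 27.2 CPM in WT and 51.6, 54.0 and 62.3 CPM in KO. Cd79b was again the largest part, at 21.4, 20.4 and 21.0 CPM in WT and 28.2, 26.9 and 34.3 CPM in KO. Of the 7 genes that passed the filter, some, such as Cd22, passed only through KO, where they were high. In edgeR's test 5 of the 7 rose (Ebf1, Pax5, Cd79a, Cd22 and Cd79b) and 0 fell. There 53.9% of all 16432 genes were called, 4919 higher and 3945 lower, a share with which the 5 of 7 is not comparable. Pax5, which sets B cell identity, differed by 2.89 ± 0.49 (edgeR adjusted p = 0.000715). Of the 7 DP markers tested, 4 fell (Rag1, Rag2, Cd4 and Cd3e) and 0 rose, beside the 3945 of 16432 genes called lower. Rag1 differed by -2.44 ± 0.19 (edgeR adjusted p = 4.1e-05). The other B cell genes tested, Ms4a1 and Blk, did not pass the test. Igkc rose in the same libraries, in which the summed V segments overlapped with WT. Plasma cell genes gave 0 calls among 7 tested. The part of these lists in the segment results was not tested.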

How the data were processed

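Thymic DP cells were sorted by flow cytometry and RNA was sequenced in 16 libraries, per the labels. The authors deposited whole-number read counts per gene and library, followed by 5 summary lines that name no gene. The aligner was HISAT2 2.0.5 and the build mm10, per the submitters' processing notes. Which program, annotation and strand setting the counting used is not given in the sources used here. Where an age was stated, 47.5% to 51.2% of entries lay outside genes. In the others this share was 7.23% to 7.60% in WT and 11.8% to 15.0% in KO. Gene counts there were 15927134 to 16167074 in WT and 10575795 to 13740694 in KO, so both measures split by genotype. The part of this in the KO results was not tested. Summary lines stayed out of library sizes.

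Identifiers numbered 55335 with an age (55154 matched a symbol) and 54532 without (54409 matched). Positions and V exon sequences came from GENCODE M21 of mm10. Counts were fitted with edgeR 4.0.16 in R 4.3.3 (filterByExpr, TMM, robust quasi-likelihood, Benjamini-Hochberg over all genes tested, threshold 0.05, two-sided), in 1 fit of the 10 libraries with an age and 1 of the other 6. The SE beside an edgeR log2 difference is that difference, without its sign, divided by the square root of the test's F value. It is thus derived from the test and is no separate estimate of error. Sums, numbers detected and shares were described with no test. The procedure was tested on simulated data, with changes placed only in well expressed genes and 1 fixed, small spread for all genes. That test does not cover sparse segments with a large spread between libraries. Alternatives were DESeq2 1.42.0, its size factors, library size alone, no filter, the replicate number as a block, the 2 groups alone, other detection minimums, shares over kappa alone, and each library left out. Shares per exon length, and the share of the leading 5, the bounds against a group at 0, the share of genes called and Ighg2b with a library left out, were added after seeing the data. Python 3.11.15, pandas 2.3.3, scipy 1.17.1, Biopython 1.88 and matplotlib 3.10.9 made the tables and figures.

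Segments were named by rule: the 5 with most counts, the leader of each library, every segment called, the 4 with the smallest p in each comparison, and Iglv1 to Iglv3, which gave 18. Igkv4-68, Igkv5-39 and Igkv8-34, and relatives in sequence, were named after their values were seen. The members and lists were chosen with earlier results of these data known. Some genes of the marker lists are not reported here, and the lists were summed and counted without them.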

Additional observations from a re-analysis of the deposited data

Results flagged for a closer look

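Among the 27 results of old WT, the only group of 4 libraries, 4 had a library whose gap to the nearest of the others was, as a share of the group's range, above Dixon's critical value for a group of that size. Chance gives about 1 in 20 for continuous values, a rate that does not hold for sparse counts: a segment found in 1 library alone meets the rule whatever its count. Igkv4-57-1 was also named for a total that old WT replicate 3 sets, so its value is a description. Igkv4-57-1 was at 291 CPM in old WT replicate 3 and had no counts in the other old WT libraries. Igkv3-4 was at 5.48 CPM in the same library (51 counts, against 1, 0 and 0). Iglv2 was at 0.645 CPM there (6 counts, against 1, 0 and 1). Igkv20-101-2 was at 0.098 CPM in old WT replicate 1, which is 1 count, with none in the other old WT libraries. So 3 of the 4 results lay in replicate 3, the library with the highest V sum.

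The KO minus WT difference of mean Igkv10-96 level was 1.35 CPM in the young libraries and -0.58 CPM in those without an age, where WT replicate 1 had 28 counts and all KO libraries together had 1. The difference between the sets was not tested.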

How the results depend on the processing

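For old against young WT, genes called numbered 36, and 85 without a filter on low counts, 146 by DESeq2, 11 with the 2 groups alone and 8 to 59 with a library left out (13, 10 and 8 on dropping young WT replicates 1, 2 and 3; 59 on dropping replicate 4 of old WT). Segments called were 0, and 1 without a filter (Igkv4-68, with 0.284% of genes called), 5 by DESeq2 and 0 to 1 with a library left out (1, Igkv4-55, without old WT replicate 1). With the replicate number as a block, 61 genes (0.429%) and 4 segments were called (Igkv1-110, Igkv3-5, Igkv4-55 and Igkv4-59). Of these, Igkv3-5, Igkv4-55 and Igkv4-59 passed the filter only through old WT. Same-numbered libraries correlated between -0.23 and 0.09 and did not always correlate best with their own number. With so few libraries this cannot decide whether a shared number marks a pair or a batch. For young KO against young WT, 1 gene was called without a filter. Segments called between KO and WT without an age were 1, and 11 without a filter (32.5% of genes) and 1 to 3 with a library left out (2 without WT replicate 1 or 3, 3 without KO replicate 2 or 3), where 42.8% to 55.4% of all genes were called. The cause was not tested, except that without a filter more genes entered the test. The excess of segments detected in old WT was 29.5, and 14.2 at a minimum of 10 counts, 6.08 at a common total and 25.3 to 37.0 with a library left out. With a library left out, the log2 ratio of summed levels ran from 2.32 to 4.23 for age, from -0.47 to 0.41 for young KO and from -0.19 to 0.71 for KO without an age. The difference in the leading share ran from -4.0 to 10.1, from -1.75 to 9.81 and from -11.9 to 0.77 percentage points in the same order, so these had no stable sign. Detected segments differed by -4.17 to 0.33 for young KO and 0.17 to 9.67 for KO without an age. Igkv20-101-2 ran from 2.81 to 3.70 (adjusted p 0.0013 to 0.019 over edgeR and DESeq2 fits). Igkv10-96 for age ran from 4.99 to 6.28 (adjusted p 0.0018 to 0.749). Depth limits most libraries: a share rests on as few as 73 segment counts.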

Other observations

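Heavy chain V segments (symbols starting with Ighv) gave 157, 71 and 67 counts in young WT libraries, 325, 1029, 2447 and 171 in old WT, and 63, 149 and 90 in young KO. All 4 old WT libraries lay above all young libraries, including replicate 4, whose light chain sum did not. Without an age they gave 88, 170 and 48 in WT and 44, 73 and 57 in KO, which overlapped.

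Of the heavy chain constant genes, Ighg2b, the IgG2b constant region, had 66, 8 and 5 counts in young WT libraries, 175, 477, 1883 and 94 in old WT, and 38, 13 and 50 in young KO. By Ighg2b each old WT library exceeded each young library. The summed heavy chain constant genes were at 472, 420 and 471 CPM in young WT libraries and 713, 947, 1956 and 462 CPM in old WT. Most of each sum was Ighm, and by the sum the groups overlapped. Taken singly, Ighm, Ighd, Igha, Ighg1, Ighg3 and Ighe overlapped between old and young WT, and Ighg2c did not. The log2 difference between old and young WT was 4.72 ± 1.46 (edgeR adjusted p = 0.322, DESeq2 adjusted p = 0.014), and 3.23 without old WT replicate 3 or 6.69 without young WT replicate 1. Of the 6 heavy chain constant genes that passed the filter, some only through old WT, 0 passed edgeR's test. Surrogate light chain, which pairs with the heavy chain before a light chain is made, had 1 of 4 genes tested, Vpreb1, at -0.45 ± 0.35 (edgeR adjusted p = 0.625).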
